A study of Mus musculus with 4 samples.

Results

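The 8 connexin genes Gja1, Gjc1, Gja3, Gja4, Gja5, Gjb1, Gjb2 and Gjb5 were followed across 4 arrays of RNA from cultures labelled MC/9, a mouse mast cell line that came from fetal liver and needs growth factors. Every probe set that the platform annotation assigned to 1 of these genes alone was taken, which gave 16 of the 45037 probe sets that are not controls, and 8 of 18193 genes. The genes were chosen by their family and by the log2 signals of Gja1 and Gjc1, which had read lower with berberine on these same arrays, so their berberine differences are given as a description. The arrays were 1-colour Affymetrix Mouse Genome 430 2.0 arrays, and all values are log2 signals, or differences of log2 signals between 2 arrays.

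The groups were cultures with 10 microM berberine (BER), with berberine and anti-DNP IgE together (BER+DNP), with 500 microg/ml anti-DNP IgE alone (DNP), and without treatment (control). The antibody recognises the hapten dinitrophenyl. Berberine is an alkaloid from plants, known as an inhibitor of the first complex of the mitochondrial respiratory chain. The labels give 24 h of treatment and 6 h of further culture for BER, BER+DNP and DNP, no times for the control, and no antigen step. Each group held 1 array, so no difference below has a replicate check and no p-value is given. By its title the series looks for genes behind an anti-inflammatory effect of berberine on activated mast cells. Markers of the labelled cell type were partly dim: 5 of 10 mast cell marker genes had a mean log2 signal at or above 3.14, the median of all probe sets and the filter used for counts below, and Kit, Fcer1a and Ms4a2, the genes of the stem cell factor receptor and of 2 chains of the IgE receptor, lay under it on all 4 arrays. Of 8 epithelial marker genes 7 passed that filter, as did 4 of 6 fibroblast, 2 of 5 endothelial and 2 of 5 general blood cell marker genes, where 69.2% of all genes did. These lists are small, and the counts name no cell type. The summed unlogged signal of the epithelial list was 1423 in BER against 1397 in control and 1508 in BER+DNP against 1547 in DNP, and that of the mast cell list 167 against 165 and 191 against 189. The sums were close within each berberine pair, although single mast cell markers moved both ways. In BER+DNP against DNP, Hdc stood at 0.50, Gata2 at -0.33 and Mcpt4 at -0.32. Cpa3, with a mean below the filter, had 3.15 in BER against 1.90 in control, a difference of 1.26, and -0.04 in BER+DNP against DNP. The keratin genes Krt17 and Krt14 carried most of the epithelial sum. The epithelial marker under the filter was the cadherin gene Cdh1, which read between 1.41 and 1.71 on the 4 arrays. In the mast cell list Gata2 and Hdc were the brightest, with mean log2 signals of 5.87 and 5.50. The part of cell makeup in the connexin readings was not tested.

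Connexins are membrane proteins that assemble as hexamers, called connexons, and a connexon docks with another on the neighbouring cell to form a gap junction channel that passes ions and small metabolites. Unpaired connexons can also open to the outside as hemichannels. Gja1 encodes Cx43, the most widely expressed family member, found in epithelia, fibroblasts, heart muscle and many blood cells. Its protein turns over quickly, and AP-1 and cyclic AMP signalling are among the known controls of its transcription.

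The promoter windows of Gja1, the gene with the largest berberine difference, and of Gjb2, a member without such a difference, are shown to set them side by side. Both come from RefSeq on assembly GRCm38.p6, run 5′ to 3′ from 250 bases before to 50 after the start of the gene, and carry in capitals each match, on either strand, to 5 motifs: AP-1 (TGANTCA), the GC box (GGGCGG), the core of the cyclic AMP response element (TGACGT), the TATA box (TATAAA) and the amino acid response element (TGATGNAA). The Gja1 window lies at chr10:56377050-56377349 on the plus strand and the Gjb2 window at chr14:57104653-57104952 on the minus strand.
Gja1: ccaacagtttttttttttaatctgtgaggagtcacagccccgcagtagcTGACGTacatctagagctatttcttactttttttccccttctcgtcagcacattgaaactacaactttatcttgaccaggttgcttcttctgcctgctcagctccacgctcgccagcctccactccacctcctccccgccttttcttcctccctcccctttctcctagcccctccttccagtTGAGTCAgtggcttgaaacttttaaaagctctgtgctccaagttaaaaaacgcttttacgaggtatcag
Gjb2: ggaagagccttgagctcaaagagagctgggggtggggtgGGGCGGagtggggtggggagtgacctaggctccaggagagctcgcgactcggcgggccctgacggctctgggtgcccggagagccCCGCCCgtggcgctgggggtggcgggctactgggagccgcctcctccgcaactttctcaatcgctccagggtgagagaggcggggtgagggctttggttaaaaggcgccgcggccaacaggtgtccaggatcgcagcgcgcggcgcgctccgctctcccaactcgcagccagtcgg
The Gja1 window held 1 AP-1 match, on the plus strand from 19 to 13 bases before the start of the gene, and 1 match to the cyclic AMP response element core, from 201 to 196 bases before it. Of 32851 promoter windows of this length, 7.81% held the first motif and 7.51% the second. The Gjb2 window held 2 GC box matches, a motif found in 35.7% of windows. RefSeq windows were matched for 7 of the 8 genes, 11 windows in all, and among them the AP-1 and cyclic AMP motifs were matched in the Gja1 window only. The TATA box was matched in windows of Gja3, Gjb1 and Gjb5 (13.6% of all windows). In Gjb1 it lay on the strand of the gene, from 29 to 24 bases before the start. In Gja3 and Gjb5 it lay on the opposite strand, from 163 to 158 and from 243 to 238 bases before the start. The amino acid response element was matched in none of the 11 (3.97% of all). These matches are descriptions of the letters and do not show that a factor binds there. No windows were matched for Gjc1.

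Gja1 was read by 6 probe sets, and they fell into a bright and a dim part. The brightest, 1437992_x_at, had log2 signals of 9.36 in BER against 10.47 in control, and 9.48 in BER+DNP against 10.29 in DNP. On the unlogged scale these were 655 units in BER against 1422 in control, and 714 in BER+DNP against 1250 in DNP. Both arrays with berberine thus lay below both arrays without it, with a gap of 0.81 between the nearest readings, and the differences of -1.12 and -0.81 correspond to 2.17-fold and 1.75-fold lower signals. In RNA from a whole culture, fewer cells with a transcript and less of it per cell cannot be told apart.

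The other bright probe sets also had both berberine arrays below both others, though in them control lay below DNP. Probe set 1438650_x_at had 9.22 in BER against 10.02 in control and 9.29 in BER+DNP against 10.10 in DNP, differences of -0.80 and -0.81. Probe set 1438945_x_at had 7.83 in BER against 8.89 in control and 8.16 in BER+DNP against 8.95 in DNP, differences of -1.06 and -0.79. The 3 bright probe sets spanned -1.12 to -0.80 in the pair without the antibody and -0.81 to -0.79 in the pair with it, so they were closer to each other in BER+DNP against DNP than in BER against control.

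**Figure D1:**
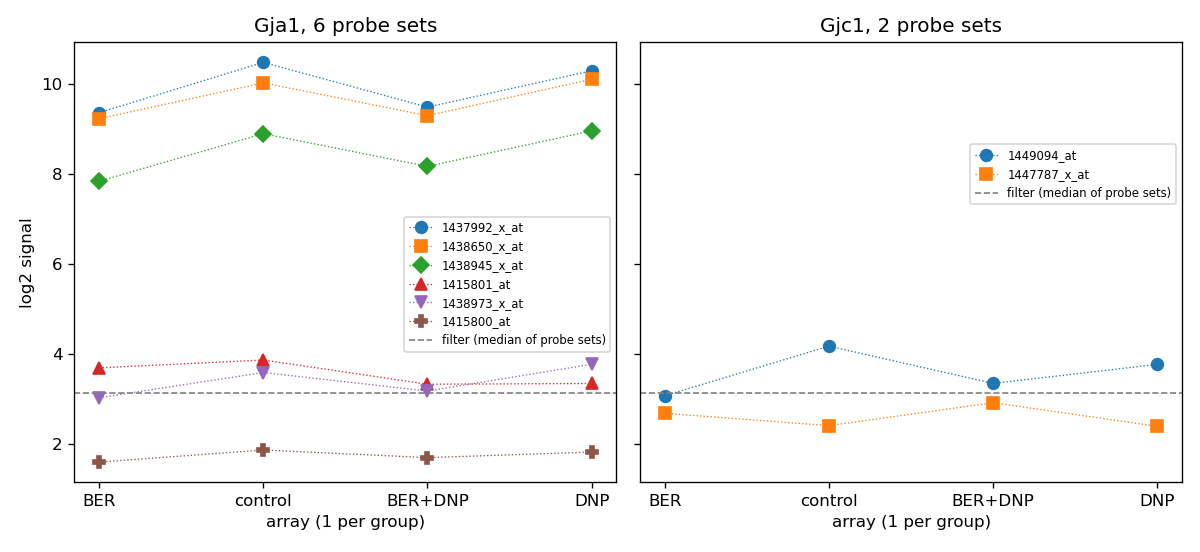
Log2 signal of each probe set of Gja1 (left) and Gjc1 (right) on the 4 arrays, 1 per group, with dotted lines joining the readings of 1 probe set and a dashed line at the filter of 3.14. The 3 bright Gja1 probe sets lie lower in BER than in control and lower in BER+DNP than in DNP, while the 2 Gjc1 probe sets move in opposite directions.

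The dim Gja1 probe sets gave smaller differences. Probe set 1438973_x_at had 3.02 in BER against 3.58 in control and 3.17 in BER+DNP against 3.77 in DNP, differences of -0.56 and -0.59. Probe set 1415801_at, which carries no x, had 3.69 in BER against 3.86 in control and 3.32 in BER+DNP against 3.34 in DNP, differences of -0.17 and -0.02, and its arrays with and without berberine overlapped. Probe set 1415800_at, the other without an x, stayed below the filter with 1.59 in BER against 1.86 in control and 1.69 in BER+DNP against 1.82 in DNP, differences of -0.27 and -0.12. All 6 probe sets therefore lay below 0 in both pairs, where 29.7% of the genes past the filter did. Both berberine arrays lay below both others for 5 of 6, against 19.7% of those genes, with 1415800_at counted although it is below the filter. Signals at least 1.5-fold lower in both pairs were read only by the 3 bright ones, against 0.159% of those genes. The 6 probe sets are annotated to 1 gene, chosen by this pattern, and share the same 4 arrays, so they are not independent of each other.

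The suffix x marks probe sets that hold probes matching other sequences as well, so that their signal can include other transcripts. All 3 bright Gja1 probe sets carry it, and both probe sets without it read at most 3.86. The annotation ties the 2 probe sets without an x to 1 common sequence record, and the 4 with an x to 3 other records, with 1 of the 4 having none. RefSeq lists Npm1, the symbol of the abundant nucleolar protein gene nucleophosmin, among the older names of Gja1. The 2 probe sets annotated to Npm1 itself gave differences of -0.11 and -0.06 (1415839_a_at, at 12.13 in BER against 12.25 in control and 12.19 in BER+DNP against 12.25 in DNP) and of -0.28 and -0.41 (1432416_a_at, at 7.61 in BER against 7.90 in control and 7.82 in BER+DNP against 8.23 in DNP). Both had the sign of the Gja1 probe sets, with smaller differences than the 4 Gja1 probe sets with suffix x, and those of 1432416_a_at were larger than those of the 2 without it; which transcripts the bright Gja1 probe sets read was not tested. Among probe sets past the filter with 1 gene symbol, both berberine arrays lay below both others in 17.7% of 970 with suffix x and in 19.4% of 17526 without it. At least 1.5-fold lower in both pairs were 4 with suffix x (0.412%), 3 of them the bright Gja1 probe sets, and 25 without it (0.143%).

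Gja1 was set among all genes by the brightest probe set of each, over the 12585 genes past the filter. Its BER against control difference was the second lowest, where 0.985% of genes lay at least 1.5-fold lower and 0.0318% at least 2-fold lower, and its BER+DNP against DNP difference was the 12th lowest, where 0.699% lay at least 1.5-fold lower. In both pairs, 1 of the 7 connexin genes past the filter, Gja1, lay at least 1.5-fold lower, against 0.159% of all genes. Nothing is read from these ranks, since the berberine differences chose the gene. Bright genes as a class also read slightly lower with berberine: for the 322 genes with a mean log2 signal of 8 or more the median difference was -0.09 for BER against control, -0.10 for BER+DNP against DNP, and both berberine arrays lay below both others in 43.8% of them, against 19.7% of all genes. Of those 322 genes, 2.48% were at least 1.5-fold lower in both pairs. Relative to their medians the Gja1 differences were -1.03 and -0.71. Quantile normalization, which brings both medians to 0, gave -0.97 and -0.68 for its brightest probe set. These values are also a description, since the berberine differences chose the gene. The part of signal level in the Gja1 reading was not tested.

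Gjc1 encodes Cx45, a connexin of the cardiac conduction system and of smooth muscle. Its brighter probe set, 1449094_at, had log2 signals of 3.07 in BER against 4.17 in control and 3.34 in BER+DNP against 3.76 in DNP. Both berberine arrays lay below both others, with differences of -1.10 and -0.42 and a gap of 0.42. On the unlogged scale the signals were 8.38 units in BER against 18.0 in control and 10.1 in BER+DNP against 13.6 in DNP, so a 2.15-fold and a 1.34-fold difference rested on a few units near the middle of all probe sets. The second probe set, 1447787_x_at, ran the other way, with 2.68 in BER against 2.40 in control and 2.91 in BER+DNP against 2.39 in DNP, differences of 0.27 and 0.53. It lay below the filter on every array, and both of its berberine readings were above both others. That order was found in 16.1% of the genes past the filter, read by their brightest probe sets. The readings for Gjc1 thus depended on the probe set in their direction.

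The remaining 6 genes read dim, with their brightest probe sets between 2.52 and 4.14 on all arrays, and 5 of the 6 passed the filter. In BER against control all 6 lay below 0, between -0.30 and -0.01, so that all 8 connexin genes had the same sign, where 49.9% of all genes lay below 0. In BER+DNP against DNP 1 of the 6 lay below 0, where 53.2% of genes did, and the 6 ranged between -0.10 and 0.68. The medians over the 8 genes were -0.19 and 0.03, against 0.00 and -0.02 over all genes. Of these 6 genes, Gja3 alone read lower in both pairs.

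Among the lens and vascular connexins, both pairs gave small differences for Gja3 and Gja5. Gja3, which encodes Cx46 of the lens, had 3.55 in BER against 3.56 in control and 3.61 in BER+DNP against 3.71 in DNP, differences of -0.01 and -0.10. Its other probe set, 1439793_at, stood at 1.41 in BER and at an identical 1.51 on the other 3 arrays. Gja4, which encodes Cx37 of endothelium and oocytes, was the only member below the filter, with 2.95 in BER against 3.04 in control and 3.21 in BER+DNP against 2.52 in DNP, differences of -0.09 and 0.68. The second was the one reading at least 1.5-fold higher among the member probe sets, where 0.509% of the genes past the filter were higher by that much, and DNP was the lowest of its 4 readings. Gja5, which encodes Cx40 of endothelium and the atria, had 3.31 in BER against 3.41 in control and 3.27 in BER+DNP against 3.26 in DNP, differences of -0.09 and 0.02, and its arrays overlapped.

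The beta connexins, which mark liver, skin and other epithelia, did not separate the arrays by their brightest probe sets. Gjb2, which encodes Cx26 of skin, liver and the inner ear, had 3.84 in BER against 4.14 in control and 3.99 in BER+DNP against 3.94 in DNP, differences of -0.30 and 0.04. Gjb5, which encodes Cx31.1 of skin, had 3.81 in BER against 4.00 in control and 4.06 in BER+DNP against 3.90 in DNP, differences of -0.19 and 0.15. For both genes the sign turned between the pairs. Gjb1, which encodes Cx32 of hepatocytes and Schwann cells, had 3.48 in BER against 3.67 in control and 3.57 in BER+DNP against 3.36 in DNP by probe set 1448767_s_at, differences of -0.19 and 0.21. Its dimmer probe set 1448766_at had 2.48 in BER against 2.50 in control and 2.26 in BER+DNP against 2.52 in DNP, differences of -0.02 and -0.26, so the 2 probe sets of Gjb1 had opposite signs in the pair with the antibody. Both berberine readings of 1448766_at lay below both others, by a gap of 0.017.

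**Figure D2:**
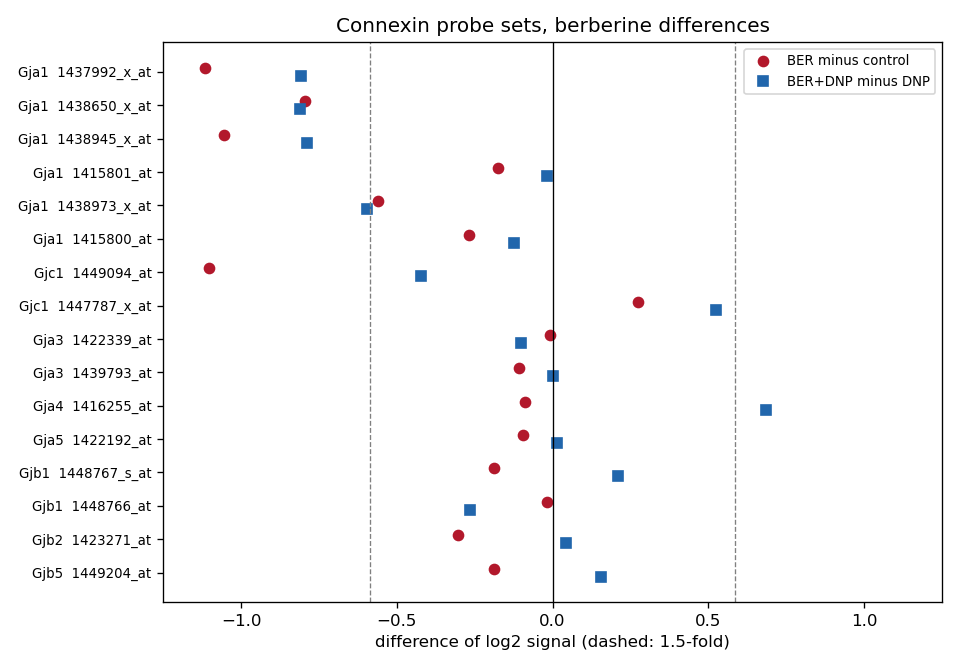
Differences of log2 signal for the 16 connexin probe sets in BER minus control (circles) and BER+DNP minus DNP (squares), with dashed lines at 1.5-fold either way. Only the 3 bright Gja1 probe sets lie beyond the lower dashed line in both pairs, and 1447787_x_at of Gjc1 lies above 0 in both.

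**Figure D3:**
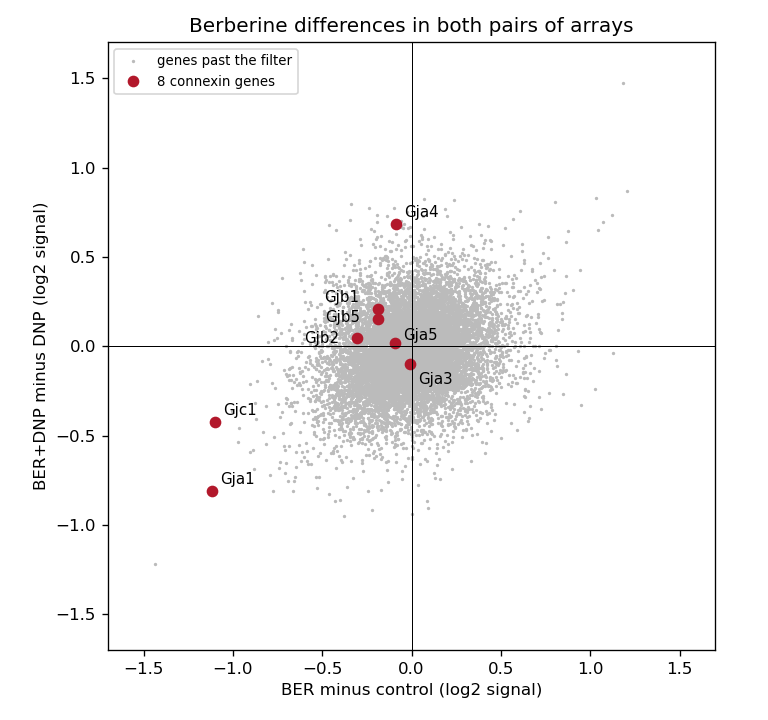
Difference of log2 signal in BER minus control (horizontal) and BER+DNP minus DNP (vertical) for the brightest probe set of each of 12585 genes past the filter (grey) and of the 8 connexin genes (red; Gja4 lies below the filter). Gja1 at -1.12 and -0.81 and Gjc1 at -1.10 and -0.42 stand at the lower left edge, and the other 6 lie within the cloud, with Gja4 at its upper edge.

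Anti-DNP IgE was compared in 2 pairs that were not used to choose the genes, although they use the same 4 arrays. In DNP against control, 7 of the 8 genes lay below 0, where 45.4% of all genes did, with a median of -0.19 against 0.02 over all genes. In BER+DNP against BER, 7 of the 8 lay above 0, where 48.8% of genes did, with a median of 0.13 against 0.00. None of the 16 probe sets was 1.5-fold apart either way in these pairs, where 1.43% and 0.914% of genes were. The control array enters both the DNP and the BER comparison, and the BER array enters both BER against control and BER+DNP against BER. These signs are therefore not independent of the choice of Gja1 and Gjc1, which read lower with berberine. The control array was the highest of the 4 for 5 of the 8 genes, against 23.9% of all genes. Whether the level of either array set the signs was not tested.

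Gja1 showed no common direction with the antibody. Its brightest probe set gave -0.19 in DNP against control and 0.12 in BER+DNP against BER, while 1438650_x_at gave 0.08 and 0.07, 1438945_x_at 0.06 and 0.33 and 1438973_x_at 0.18 and 0.15. The probe set 1415801_at gave -0.52 and -0.36, the only Gja1 probe set below 0 in both, and 1415800_at -0.05 and 0.10. Gjc1 by 1449094_at gave -0.40 and 0.27, and by 1447787_x_at -0.02 and 0.24, while Gja4 gave -0.52 and 0.25. By their brightest probe sets the beta connexins lay below 0 in the first pair and above it in the second. Gjb1 stood at -0.31 and 0.09, Gjb2 at -0.20 and 0.15 and Gjb5 at -0.10 and 0.24. The dimmer Gjb1 probe set, 1448766_at, ran the other way in both pairs, at 0.02 and -0.23. By brightest probe sets, Gja3 (0.16 and 0.06) and Gja5 (-0.15 and -0.04) were the members whose sign was the same in both pairs. Opposite signs were found in 42.1% of all genes here, and in 42.3% in the berberine pairs. In BER+DNP against control, Gja1 differed by -0.99 and Gjc1 by -0.83, where 0.874% of genes were at least 1.5-fold lower, and the other 6 lay between -0.16 and 0.16.

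**Figure D4:**
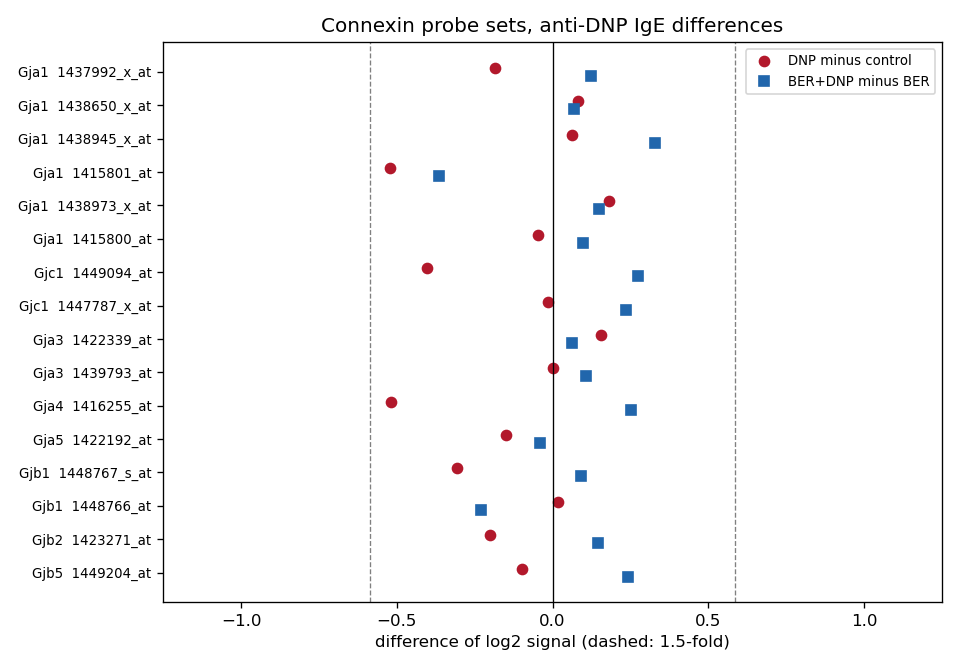
Differences of log2 signal for the 16 connexin probe sets in DNP minus control (circles) and BER+DNP minus BER (squares), on the same scale and with dashed lines at 1.5-fold. All points lie inside the 1.5-fold lines.

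Of 12 further connexin genes, 6 had a probe set of their own in the annotation and 4 of these passed the filter. None was 1.5-fold apart in either berberine pair. Gjd2, which encodes a connexin of neurons, was the only one with both berberine arrays below both others by its brightest probe set. That order was found in 19.7% of all genes. Gjd2 had 3.49 in BER against 3.75 in control and 3.60 in BER+DNP against 3.70 in DNP. Its dimmer probe set, 1435297_at, had 3.25 in BER against 2.69 in control and 2.92 in BER+DNP against 2.93 in DNP, differences of 0.56 and -0.02. Gjd4 gave 0.48 and -0.19, Gjc3 -0.31 and 0.07 and Gja10 -0.06 and 0.10. The pannexin genes encode channels of similar build that do not usually pair between cells. Panx1 stood near 5.28 on average and gave -0.06 and 0.08, Panx2 gave -0.15 and 0.07 and Panx3 -0.03 and 0.05. Of these 7 connexin and pannexin genes past the filter, Gjd2 alone lay below 0 in both berberine pairs by its brightest probe set. Over all genes, 29.7% did.

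Genes whose proteins bind, move or modify Cx43 went both ways. Of 22 listed genes that could be read, 20 passed the filter; 8 lay below 0 in both berberine pairs and 6 above 0 in both, where 29.7% and 25.4% of all genes did. None was at least 1.5-fold lower in both pairs. Vcl, which encodes the adhesion protein vinculin, had 5.29 in BER against 5.82 in control and 4.99 in BER+DNP against 5.78 in DNP, differences of -0.53 and -0.79. Cav1, which encodes the membrane scaffold caveolin, had 6.18 in BER against 6.67 in control and 6.16 in BER+DNP against 6.51 in DNP, differences of -0.49 and -0.35. Both genes read lower on both berberine arrays than on either of the others, as did 2 more of the list, among them the cadherin gene Cdh2 (-0.22 and -0.15); these 4 of 20 are close to the 19.7% of all genes with that order. On the other side, Ezr, which encodes a linker between membrane and actin, gave 0.35 and 0.43, and Tjp1, which encodes the scaffold ZO-1 that binds the tail of Cx43, gave 0.30 and 0.16. Dbn1, an actin-binding protein gene, gave 0.68 and 0.00, and the kinase gene Prkce -0.20 and -0.43.

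The other junctions of the cell surface showed no shared direction. Over all genes, 29.7% lay below 0 in both berberine pairs and 25.4% above 0 in both. Of 8 desmosome genes past the filter 4 lay below and 2 above. The plakophilin genes Pkp2 and Pkp3 stood at -0.53 and -0.39 and at -0.41 and -0.35, and Jup, which encodes plakoglobin, at 0.30 and 0.11. Pkp4 stood at -0.39 and -0.12, and Dsc3 at -0.13 and -0.16. Of 12 tight junction genes 2 lay below and 5 above, with the scaffold gene Patj at 0.42 and 0.32 and the claudin gene Cldn3 at 0.21 and 0.19. Marveld3 stood at 0.08 and 0.20, and the claudin gene Cldn4 at -0.14 and -0.03. Of 10 adherens junction genes 3 lay below and 2 above. Those below were Vcl (-0.53 and -0.79), Cdh2 (-0.22 and -0.15) and Cdh3 (-0.05 and -0.19). Those above were Jup and the adhesion receptor gene Nectin2 (0.26 and 0.25). The lists share genes with each other and with the list of Cx43 partners, among them Vcl, Cdh2 and Tjp1, so they are not independent. Both berberine arrays lay below both others for 3 of 8 desmosome, 1 of 12 tight junction and 3 of 10 adherens junction genes, against 19.7% of all genes. The medians were -0.08 and -0.01 for desmosome genes, 0.05 and 0.13 for tight junction genes and -0.05 and -0.02 for adherens junction genes. Over all genes they were 0.00 and -0.02.

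The genes whose profile over the 4 arrays came nearest to that of the brightest Gja1 probe set were found by Euclidean distance between log2 signals centred on each gene's own mean. Mycbp, which encodes a MYC-binding protein, was nearest at a distance of 0.21, with berberine differences of -0.88 and -0.69. Gjc1 followed at 0.28, then Ywhaq, which encodes a 14-3-3 protein, at 0.28 (-0.74 and -0.68), Filip1l at 0.30 (-0.79 and -0.72) and Vsnl1, which encodes a neuronal calcium sensor, at 0.31 (-0.96 and -0.46). The median distance over all genes was 0.99. With 4 arrays this likeness is mostly the berberine difference itself, which chose Gja1 and Gjc1.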

How the data were processed

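The authors deposited log2 signals for 45101 probe sets on each of 4 arrays. Affymetrix Expression Console was used for them, per the submitters' processing notes; its version and summary algorithm were not given in the sources used here, and no detection calls were used. That the unit is log2 was read from the values. The medians of the 4 arrays lay between 3.13 and 3.15, so the deposited log2 values were used without further normalization. Controls (64 probe sets) were set apart. Symbols came from the platform annotation of 2016: 34945 probe sets had 1 symbol, 932 several and 9160 none, and 34741 matched RefSeq (GRCm38.p6) by gene ID. The brightest probe set by mean over the 4 arrays stood for a gene, and genes entered counts at a mean of 3.14 (the median) or more. Each comparison is a difference of 2 arrays, computed in Python 3.11.15 with pandas 2.3.3 and numpy 2.4.6; with 1 array per group no test was run, and the number of arrays limits the precision. An additive fit over the 4 arrays, which would take the difference of differences as noise, was left out. The counting steps were tested on simulated data. The members, gene lists and motifs were chosen with earlier results of these data known. Genes were named by rule: all member probe sets, further connexins and pannexins, and the 5 genes nearest to Gja1. From each list, up to 5 members past the filter with the largest mean berberine difference in either direction could be named. Npm1 is outside this rule and was named after its values were seen. The mast cell markers Kit, Fcer1a, Ms4a2 and Cpa3 and the epithelial marker Cdh1, which lay below the filter by their means, are also outside it.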

Additional observations from a re-analysis of the deposited data

Results flagged for a closer look

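By their brightest probe sets, 5 of the 8 connexin genes had berberine differences of opposite sign in the 2 pairs of arrays, where 42.3% of all genes did, and 6 of the 8 had antibody differences of opposite sign, where 42.1% did. With 1 array per group these differences between pairs were not tested. The difference of differences, BER+DNP minus DNP less BER minus control, was 0.77 for Gja4, 0.68 for Gjc1, 0.40 for Gjb1, 0.35 for Gjb2, 0.34 for Gjb5, 0.31 for Gja1 and 0.11 for Gja5. By the same probe sets, Gja1 and Gjc1 had opposite signs only in the antibody pairs, Gja5 only in the berberine pairs, and Gja4, Gjb1, Gjb2 and Gjb5 in both kinds of pair. Other probe sets differed in this: 1438650_x_at, 1438945_x_at and 1438973_x_at of Gja1 lay above 0 in both antibody pairs, and 1448766_at of Gjb1 lay below 0 in both berberine pairs.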

How the results depend on the processing

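The labels give no replicate numbers, and an additive fit with the 2 berberine pairs as a block was left out. Depth cannot be stated for arrays; 7 of the 8 genes had a mean log2 signal under 4, and once the filter was the 75th percentile 1 of 8, Gja1, passed in place of 7. The count with both berberine arrays below both others was 1 in place of 2 with that filter or with a gene's probe sets taken by their median, and the gene left was Gja1. With the brightest probe set lacking suffix x or s it was also 1, but the gene left was Gjc1. In this last setting 0 in place of 1 were at least 1.5-fold lower in both pairs. In that setting Gja1 gave -0.17 (BER against control) and -0.02 (BER+DNP against DNP); its 6 probe sets taken by their median gave -0.62 in each (main -1.12 and -0.81). When 32 or 100 was added to each signal, the medians over the 8 genes were -0.056 and -0.022 in BER against control (main -0.19) and -0.074 and -0.030 in DNP against control (main -0.19), and with 100 added 0.019 in BER+DNP against BER (main 0.13). Gjc1 in BER against control gave -0.31 and -0.12 with 32 and 100 added, and with the median of its probe sets -0.41, against 0.05 in BER+DNP against DNP. The share of genes at least 1.5-fold lower in BER+DNP against BER was 0.227% with the filter at the 75th percentile (main 0.358%). The cause of these shifts was not tested, beyond what each setting removes or adds.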
